A study of Saccharomyces cerevisiae with 6 samples.

Results

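The 10 genes described here cover the making, desaturation and activation of fatty acids in Saccharomyces cerevisiae. They were taken by name from the array annotation, as FAS1, FAS2, ACC1, OLE1, ELO1, FAA1, FAA4, MGA2, SPT23 and ACB1. Each was read by 1 probe, so they are 10 of 6271 probes, and 10 of the 6248 genes and unnamed probes tested. Expression was measured in 59A PDR8-S288c and in wild type 59A, with 3 cultures per strain and 1 one-color array per culture. Wild type 59A is a haploid of mating type a with an inactive ho gene, derived from the industrial wine strain EC1118. In 59A PDR8-S288c the own PDR8 gene, which encodes a transcription factor of drug resistance, was first replaced by the hygromycin cassette hphMX4 and then by the PDR8 allele of the laboratory strain S288c, with a loxP-kanMX4-loxP cassette in its terminator. Effects of the cassette cannot be told apart from those of the allele, and the sources used here do not say how many transformants were kept. All 6 cultures fermented a synthetic grape must with 425 mg/l assimilable nitrogen under an airlock, and were sampled in stationary phase at 66 g/l CO2 released, which is 70% of fermentation progress. The methods add that the sterol and oleic acid given with the must were reduced in the study's fermentations.

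Yeast builds fatty acids from acetyl-CoA. Acetyl-CoA carboxylase makes malonyl-CoA, and the cytosolic fatty acid synthase, a complex of an alpha and a beta subunit, turns it into saturated acyl chains. The desaturase then places the double bond, a step that needs oxygen, so that cells kept without air depend on unsaturated fatty acids from the medium. Fatty acids taken up are joined to coenzyme A by acyl-CoA synthetases, and the transcription factors Mga2p and Spt23p, which are anchored in the endoplasmic reticulum, switch on the desaturase gene once they are cut free.

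Every array gave a value for each of the 6271 probes except that of wild type replicate 3, on which 2066 probes (32.9%) had none, and the medians of the 6 arrays lay between 8.06 and 8.07 log2 units. On this scale 5.3 is background and 16 is saturation. Among the fatty acid genes only ELO1 lacked the value of wild type replicate 3. PDR8 itself, the exchanged gene, read 6.76, 6.77 and 6.70 in 59A PDR8-S288c and 7.21 and 7.26 in wild type replicates 1 and 2. The match of its probe to either allele is not known here, so this is a difference of signal. QDR2, a multidrug transporter gene, separated the strains with 9.84, 9.96 and 9.71 in 59A PDR8-S288c and 7.59, 7.57 and 7.68 in the wild type. The 5 marker genes of mating type a lay between 7.97 and 11.40 in 59A PDR8-S288c and between 7.88 and 11.46 in the wild type, and the 3 of mating type alpha between 5.35 and 6.00 in 59A PDR8-S288c and between 5.33 and 5.94 in the wild type. Levels are relative within each array, so a change in total RNA per cell would not be seen.

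None of the 10 fatty acid genes passed an adjusted p under 0.05 between 59A PDR8-S288c and the wild type (limma, Benjamini-Hochberg adjustment over all 6248 features). Of all features 1.54% passed, so a count of 0 among the 9 genes with an unsaturated probe (all but OLE1) is near that background. At an unadjusted p under 0.05 there were 2, ACC1 and SPT23, both on the higher side, where 18.1% of all features lay under that value, and 9.99% did so on the higher side. The log2 fold change (LogFC) is the mean of 59A PDR8-S288c less that of the wild type. Leaving out OLE1, whose probe was saturated, 4 of 9 values were above 0 and 5 below, with a median of -0.03, against 0.01 over all features. The values ran from -0.28 for ELO1 to 0.26 for SPT23.

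**Figure D1:**
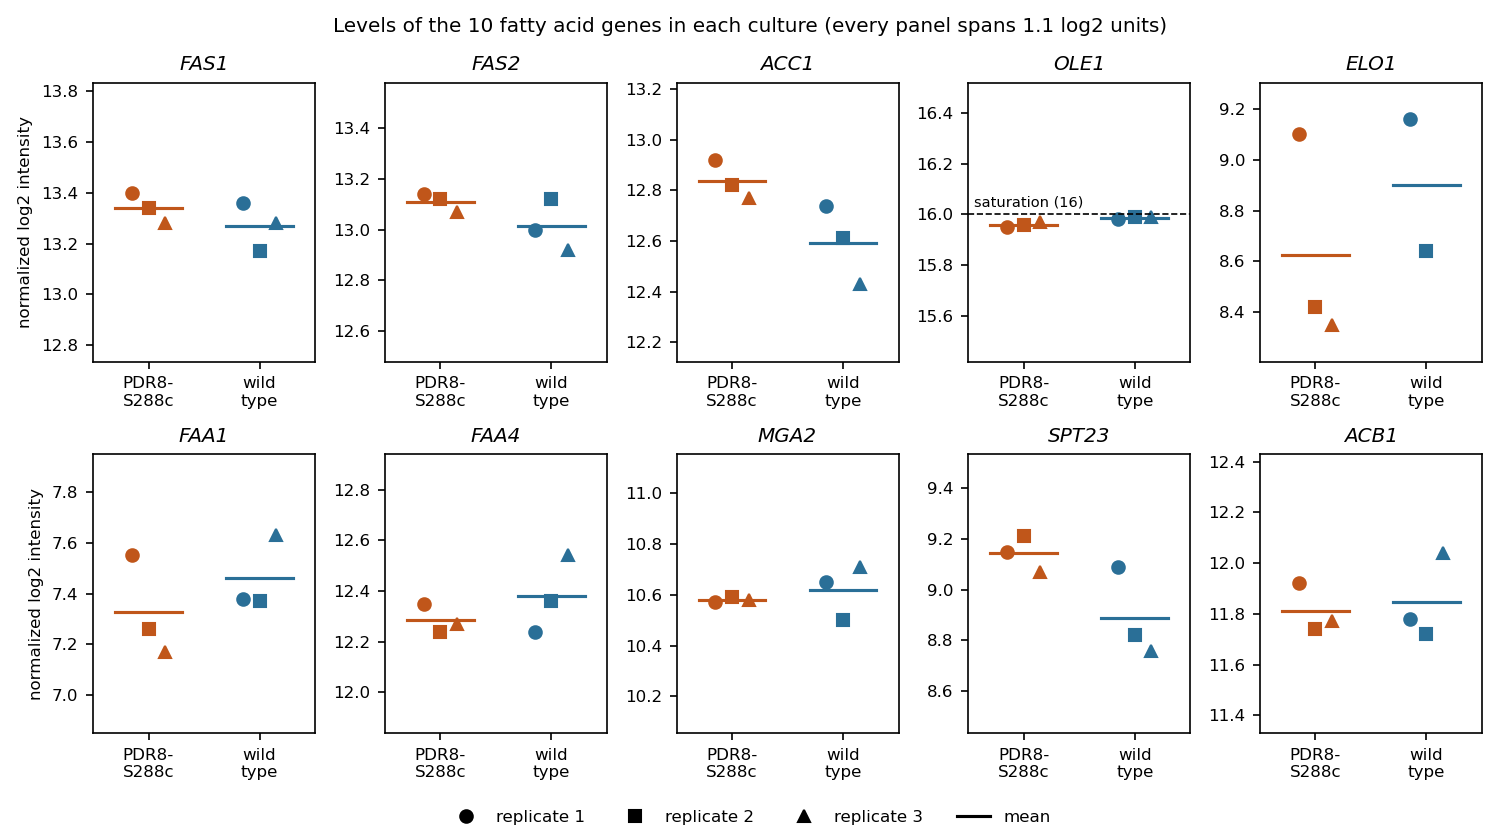
Normalized log2 intensity of the 10 fatty acid genes in the 3 cultures of 59A PDR8-S288c (orange) and the 3 of the wild type (blue), with the mean of each strain as a line. Only ACC1 is higher in every 59A PDR8-S288c culture than in every wild type culture, by 0.03 between the nearest values, and OLE1 lies just under the saturation level of 16 everywhere.

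Among the genes of chain synthesis ACC1 had a LogFC above those of FAS1 and FAS2, except with slide position in the fit, where FAS2 was at 0.11 and ACC1 at 0.10. ACC1 (YNR016C) encodes acetyl-CoA carboxylase, which commits carbon to fatty acids. It read 12.92, 12.82 and 12.77 log2 units in 59A PDR8-S288c and 12.74, 12.61 and 12.43 in the wild type. The groups did not overlap, although the lowest 59A PDR8-S288c culture was only 0.03 above the highest wild type culture. The LogFC was 0.24 (SE 0.08, 95% confidence interval 0.05 to 0.44, adjusted p = 0.182 from limma), or 1.18-fold, and the exact permutation test gave p = 0.1 (two-sided), which is the lowest value that 3 against 3 cultures can reach. Of the 8 fatty acid genes with 6 unsaturated values, ACC1 was the only 1 whose groups did not overlap, while the groups were apart in 24.6% of the 4190 features with 6 values. The LogFC of ACC1 was 0.16 without wild type replicate 3, which gave the lowest value, and 0.10 when slide position (subarrays 1 to 4 against 5 to 8) entered the fit. There the only wild type culture in the same part of the slide as 59A PDR8-S288c is replicate 1.

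FAS1 (YKL182W) encodes the beta subunit of the fatty acid synthase. It read 13.40, 13.34 and 13.28 in 59A PDR8-S288c and 13.36, 13.17 and 13.28 in the wild type. The cultures of both strains were interleaved, with the highest and the lowest only 0.23 apart. The LogFC was 0.07 (SE 0.06, 95% confidence interval -0.07 to 0.21, adjusted p = 0.593 from limma), so that a difference above 1.16-fold in either direction lay outside the interval. With slide position in the fit the LogFC of FAS1 was -0.02. FAS2 (YPL231W), which encodes the alpha subunit, read 13.14, 13.12 and 13.07 in 59A PDR8-S288c and 13.00, 13.12 and 12.92 in the wild type. Its wild type replicate 2 reached the level of 59A PDR8-S288c, and the LogFC was 0.10 (SE 0.06, 95% confidence interval -0.04 to 0.24, adjusted p = 0.436 from limma), and 0.05 without wild type replicate 3. The changes of the subunit genes differed by -0.03 log2 units, FAS1 minus FAS2 (exact permutation test, two-sided p = 1). In the order of the cultures FAS1 was most like the DNA primase gene PRI1 (Pearson r = 0.975 over 6 arrays, the highest of 3220 genes of sufficient spread), followed by TAH18, UTP11, PPH3 and PUT2 (0.953 to 0.943). With 6 arrays and a range of 0.23 log2 units in FAS1, such values are a description only.

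The desaturase gene could not be compared. OLE1 (YGL055W) encodes the delta-9 desaturase, the source of unsaturated fatty acids in yeast. Its probe read 15.95, 15.96 and 15.97 in 59A PDR8-S288c and 15.98, 15.99 and 15.99 in the wild type. All 6 values lay within 0.053 log2 units of the saturation level, and on wild type replicates 1 and 2 it equalled the highest value of the array. Only 3 of the 6248 features lay within 0.1 log2 units of saturation on every array. No fold is given, since a probe at its ceiling would show neither a higher nor a lower transcript level above that point. What these arrays show is that OLE1 gave a signal at the top of the scale in both strains.

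ELO1 (YJL196C), the elongase gene for medium-chain acyl groups, varied more between cultures of a strain than between the strains. It read 9.10, 8.42 and 8.35 in 59A PDR8-S288c and 9.16 and 8.64 in wild type replicates 1 and 2. Replicate 1 stood above the others in both strains, by 0.68 over the next culture of 59A PDR8-S288c and by 0.52 in the wild type. The LogFC was -0.28 (SE 0.25, 95% confidence interval -0.88 to 0.32, adjusted p = 0.609 from limma), an interval wide enough to hold 0.544-fold to 1.25-fold. Its spread within strains, an SD of 0.40, was reached by only 0.832% of all features. Without wild type replicate 1 the LogFC was -0.02, and without wild type replicate 2 it was -0.54, so the size of the difference depended on single cultures.

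The genes of the membrane-bound activators gave unequal values. SPT23 (YKL020C) read 9.15, 9.21 and 9.07 in 59A PDR8-S288c and 9.09, 8.82 and 8.76 in the wild type. Wild type replicate 1 lay among the cultures of 59A PDR8-S288c, and the other wild type cultures lay below all of them. The LogFC was 0.26 (SE 0.09, 95% confidence interval 0.05 to 0.46, adjusted p = 0.186 from limma), or 1.20-fold. It was 0.36 without wild type replicate 1, and 0.06 when slide position entered the fit, which then sets 59A PDR8-S288c against that culture.

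MGA2 (YIR033W), the paralog of SPT23, read 10.57, 10.59 and 10.58 in 59A PDR8-S288c and 10.65, 10.50 and 10.71 in the wild type. The 3 cultures of 59A PDR8-S288c lay within 0.02 of each other and inside the range of the wild type. The LogFC was -0.05 (SE 0.06, 95% confidence interval -0.18 to 0.09, adjusted p = 0.728 from limma). The change of SPT23 exceeded that of MGA2 by 0.30 log2 units. Taken per array the SPT23 value less the MGA2 value did not overlap between the strains, and the exact permutation test gave a two-sided p = 0.1, the smallest possible. FAS1 with FAS2, SPT23 with MGA2, and FAA1 with FAA4 were the 3 pairs compared in this way. Among single features measured on every array, 24.6% also had groups that did not overlap, and the share among pairs of genes was not computed. With slide position in the fit the LogFC was 0.06 for SPT23 and -0.08 for MGA2, so the values lay closer together there.

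The means of the genes of activation and transport were lower in 59A PDR8-S288c by less than the spread between cultures, and those of FAA4 and ACB1 turned sign when slide position entered the fit (0.05 and 0.03). FAA4 (YMR246W) encodes an acyl-CoA synthetase for long-chain fatty acids taken up from the medium. It read 12.35, 12.24 and 12.27 in 59A PDR8-S288c and 12.24, 12.36 and 12.54 in the wild type. Wild type replicate 3 was the highest, and the other cultures were mixed. The LogFC was -0.09 (SE 0.08, 95% confidence interval -0.27 to 0.09, adjusted p = 0.566 from limma), and -0.01 without wild type replicate 3. FAA1 (YOR317W), the gene of the other main synthetase for imported fatty acids, read 7.55, 7.26 and 7.17 in 59A PDR8-S288c and 7.38, 7.37 and 7.63 in the wild type. The highest value was again in wild type replicate 3 and the next in 59A PDR8-S288c replicate 1. The LogFC was -0.13 (SE 0.11, 95% confidence interval -0.39 to 0.12, adjusted p = 0.566 from limma), and it differed from that of FAA4 by -0.04 (exact permutation test, two-sided p = 0.8). The LogFC of FAA1 was -0.24 without 59A PDR8-S288c replicate 1, and -0.05 without 59A PDR8-S288c replicate 3 or without wild type replicate 3.

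ACB1 (YGR037C) encodes the acyl-CoA binding protein, which carries acyl chains between enzymes. It read 11.92, 11.74 and 11.77 in 59A PDR8-S288c and 11.78, 11.72 and 12.04 in the wild type. Its cultures were mixed as well, with wild type replicate 3 the highest. The LogFC was -0.03 (SE 0.09, 95% confidence interval -0.25 to 0.18, adjusted p = 0.877 from limma). Its sign turned without wild type replicate 3 (0.06).

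**Figure D2:**
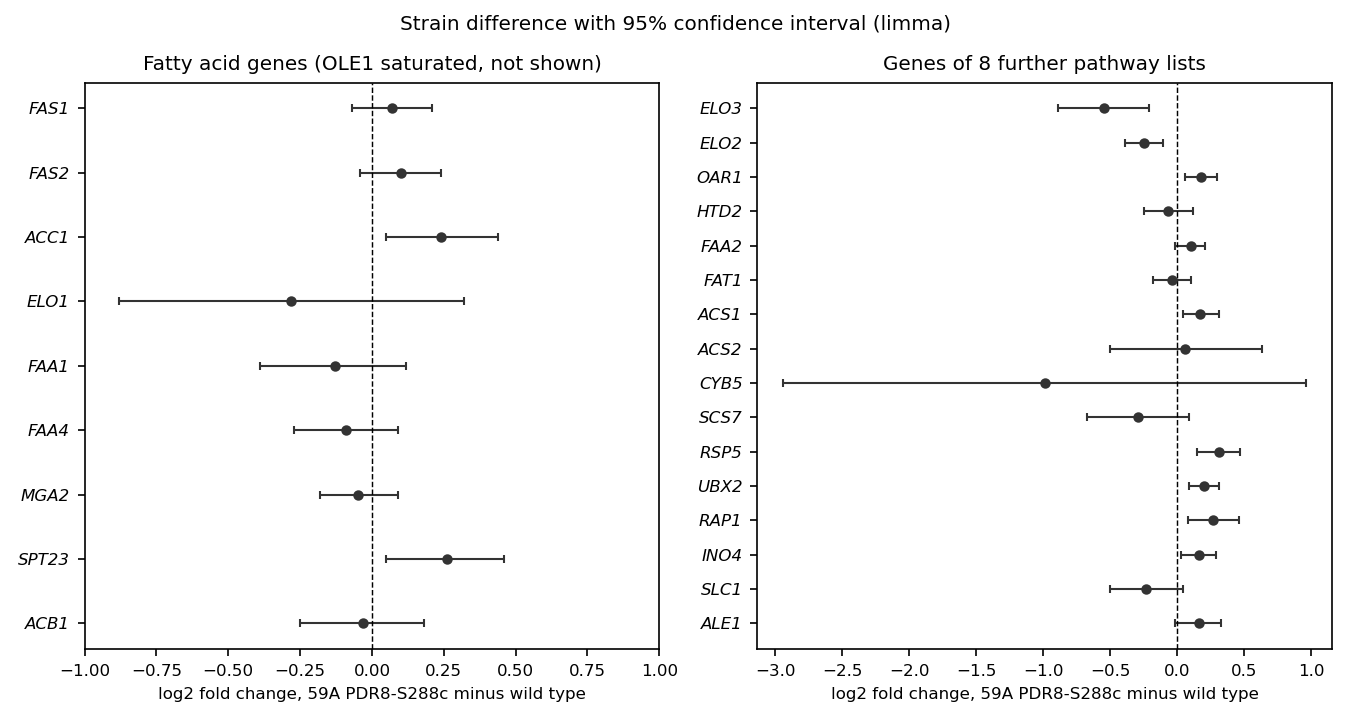
Log2 fold changes of 59A PDR8-S288c minus wild type with 95% confidence intervals from limma, for 9 fatty acid genes (left) and for 16 genes of 8 further pathway lists (right, on a wider axis). On the left the intervals of ACC1 and SPT23 lie above 0, and on the right those of RSP5, UBX2, RAP1, INO4, ACS1 and OAR1 lie above 0 and those of ELO2 and ELO3 below it, but no gene in the plot passed an adjusted p under 0.05.

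Wild type replicate 3 held the highest or the lowest of the 6 values in 7 of the 8 fatty acid genes with 6 unsaturated values, all but FAS1. It was the highest in FAA1, FAA4, MGA2 and ACB1 and the lowest in FAS2, ACC1 and SPT23. Over all 4190 features measured on every array it held an extreme value in 58.3%, against 24.4% to 30.4% for the other arrays. It also received the lowest array weight, 0.295, against 0.847 to 1.60 for the others. The part of this array in the values of the fatty acid genes was tested only by leaving it out and by array weights, neither of which gave a call among them.

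A further order of cultures was looked at in both strains. Of the 9 fatty acid genes besides OLE1, 5 had replicate 1 highest in 59A PDR8-S288c and above replicate 2 in the wild type. These were FAS1, ACC1, ELO1, FAA1 and ACB1. The same order was found in 20.5% of all features and in 21 of 24 ergosterol genes, and was looked for after ELO1 had been seen. Wild type replicate 3 did not enter this order. It was above wild type replicate 1 in FAA1 (7.63 against 7.38) and ACB1 (12.04 against 11.78), and below it in FAS1 and ACC1. Wild type replicate 1 exceeded replicate 2 by only 0.01 in FAA1 and 0.06 in ACB1. Among the ergosterol genes wild type replicate 3 lay on either side of replicate 1, as in ERG5 (11.98 against 11.66) and ERG3 (12.99 against 13.05). The ergosterol genes encode the sterol pathway, whose later steps need oxygen as the desaturase does. Over the 14 of them measured on every array the median level was 11.26, 10.85 and 10.95 in 59A PDR8-S288c and 11.38, 10.86 and 11.30 in the wild type (replicates 1, 2 and 3). Replicate 1 lay on subarray 6 for 59A PDR8-S288c and on subarray 8 for the wild type. With slide position in the fit the LogFC of ELO1 was -0.54 (adjusted p = 0.642 from limma). The part of sterol or oxygen state in the values of ELO1 was not tested. The numbers here are those of the sample titles, and the description of 59A PDR8-S288c replicate 1 numbers it 2, so that the order describes these cultures and does not pair them.

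**Figure D3:**
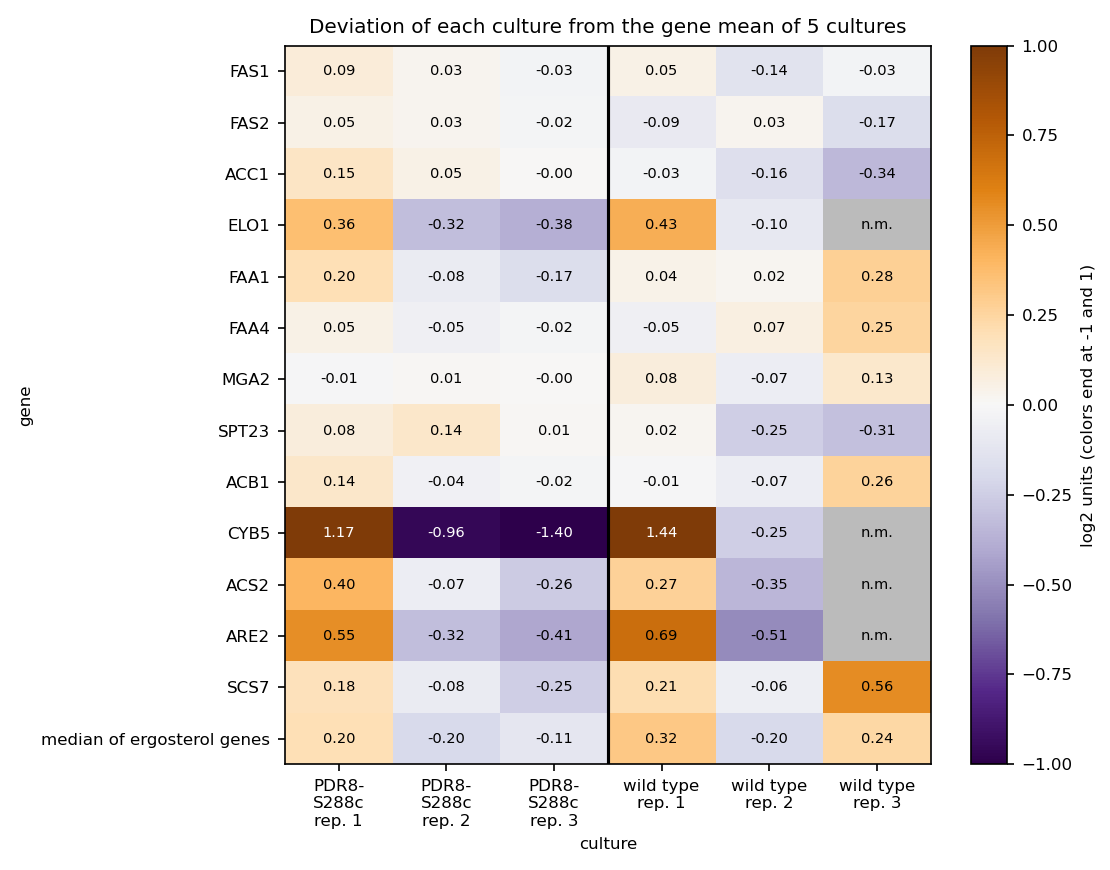
Deviation of each culture, in log2 units, from the mean of the gene over the 5 cultures other than wild type replicate 3, for 9 fatty acid genes, 4 further lipid genes and the median of 14 ergosterol genes (n.m., not measured). Replicate 1 of both strains is high in ELO1, CYB5, ACS2 and ARE2, with 1.17 and 1.44 in CYB5, while FAS1, FAS2 and MGA2 deviate by less than 0.2 in every culture. ELO1, CYB5, ACS2 and ARE2 have no value in wild type replicate 3, where SCS7 is highest (0.56).

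The 8 other lists held 42 genes that work beside these 10, all of them measured, and none passed an adjusted p under 0.05 from limma, while 8 higher and 3 lower lay at an unadjusted p under 0.05, where 9.99% of all features did so on the higher side and 8.1% on the lower. Their median LogFC was -0.01, with 20 genes above 0 and 22 below, against 3311 above 0 among all 6248 features. The groups did not overlap in 7 of the 42 on the higher side and 5 on the lower. Over all 6248 features these counts were 1018 and 735, so such a separation was near the background. Among the 5 genes of long-chain elongation, 4 were below 0. ELO3, named SUR4 in the array annotation, encodes the elongase of very long chains. It read 6.12, 6.27 and 6.54 in 59A PDR8-S288c and 6.70 and 7.02 in wild type replicates 1 and 2. All cultures of 59A PDR8-S288c lay below the 2 measured wild type cultures, with a LogFC of -0.55 (SE 0.14, adjusted p = 0.114 from limma). The exact permutation test gave p = 0.2 (two-sided), the lowest value that 3 against 2 cultures can reach. The lowest ELO3 value was 0.82 above background, and its SD within strains of 0.22 was reached by 3.3% of all features. ELO2, named FEN1 in that annotation, is the elongase gene that acts before ELO3. It read 6.55, 6.71 and 6.66 in 59A PDR8-S288c and 6.84, 6.97 and 6.85 in the wild type. Its groups did not overlap either, with a LogFC of -0.25 (SE 0.06, adjusted p = 0.089 from limma). The reductase gene IFA38, the dehydratase gene PHS1 and TSC13, which encodes the enoyl reductase, lay between -0.10 and 0.02.

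The 5 genes that release Mga2p and Spt23p from the membrane had 4 values above 0. RSP5, the gene of the ubiquitin ligase that marks both proteins, read 8.74, 8.84 and 8.70 in 59A PDR8-S288c and 8.52 and 8.40 in wild type replicates 1 and 2. The groups were 0.18 log2 units apart, with a LogFC of 0.31 (SE 0.07, adjusted p = 0.0809 from limma). With 3 against 2 cultures the exact permutation test gave p = 0.2 (two-sided). UBX2, whose product recruits Cdc48p to the membrane, read 8.12, 8.13 and 8.08 in 59A PDR8-S288c and 7.85, 7.92 and 7.97 in the wild type. The groups did not overlap, with a LogFC of 0.20 (SE 0.05, adjusted p = 0.086 from limma). With array weights UBX2 passed the threshold (LogFC 0.22, adjusted p = 0.04 from limma), the only gene of the 8 lists that passed in any alternative. CDC48, UFD1 and NPL4, which encode the segregase and its cofactors, lay between -0.05 and 0.06.

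All 6 genes of transcription factors that act on the fatty acid synthase genes were above 0, with a median LogFC of 0.14, and 4 of them lay at an unadjusted p under 0.05. Of all 6248 features 3311 were above 0, and 9.99% lay under that p on the higher side. RAP1 had a LogFC of 0.27 (SE 0.08, adjusted p = 0.145 from limma). INO4, a partner of INO2 in the activation of lipid genes, had a LogFC of 0.16 (SE 0.05, adjusted p = 0.19 from limma). INO2 and ABF1 were at 0.14 and 0.13, REB1 at 0.05 and the repressor gene OPI1 at 0.01.

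The 4 genes of desaturase electron partners and lipid hydroxylases were all below 0, and 1 of them varied far more than any fatty acid gene. CYB5, which encodes cytochrome b5, an electron donor of sterol and lipid desaturation, read 10.32, 8.20 and 7.76 in 59A PDR8-S288c and 10.60 and 8.90 in wild type replicates 1 and 2. Replicate 1 of each strain was at least 1.70 above the other cultures of that strain. The spread within strains, an SD of 1.32, was the highest of all 6248 features. The LogFC was -0.99 (SE 0.81, 95% confidence interval -2.94 to 0.96, adjusted p = 0.567 from limma), so that even a decrease of several fold could not be told from the spread. It was -0.14 without wild type replicate 1, -1.84 without wild type replicate 2, -1.77 without 59A PDR8-S288c replicate 1 and -0.49 without 59A PDR8-S288c replicate 3. The fatty acid hydroxylase gene SCS7 had a LogFC of -0.29 (SE 0.16, adjusted p = 0.401 from limma), and -0.13 without wild type replicate 3. CBR1, the cytochrome b5 reductase gene, was at -0.19 (SE 0.07, 95% confidence interval -0.36 to -0.03, adjusted p = 0.208 from limma). The sphingolipid hydroxylase gene SUR2 was at -0.07.

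Acetyl-CoA supply split into genes with small and large spread. ACS1, an acetyl-CoA synthetase gene, read 10.82, 10.92 and 10.92 in 59A PDR8-S288c and 10.70 and 10.73 in wild type replicates 1 and 2, with a LogFC of 0.17 (SE 0.06, adjusted p = 0.177 from limma). ACS2, the gene of the other synthetase, read 9.50, 9.03 and 8.85 in 59A PDR8-S288c and 9.38 and 8.76 in wild type replicates 1 and 2. Like ELO1 it was highest in replicate 1 of each strain, and its LogFC was 0.06 (SE 0.24, adjusted p = 0.92 from limma), with the sign turned in 4 alternatives. BPL1, which attaches biotin to acetyl-CoA carboxylase, was at -0.04.

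In the remaining lists the LogFC values ran from -0.23 to 0.18. Mitochondrial fatty acid synthesis, which supplies lipoic acid precursors, had 8 genes from -0.07 to 0.18. Its highest was OAR1 (SE 0.05, adjusted p = 0.124 from limma), whose level of 5.53 to 5.81 was near background, and its lowest was HTD2. The other acyl-CoA synthetase genes FAA2, FAA3 and FAT1 lay between -0.04 and 0.10. The 8 acyltransferase genes, which place acyl chains on glycerol and sterols, ran from -0.23 for SLC1 (SE 0.12, adjusted p = 0.346 from limma) to 0.16 for ALE1 (SE 0.08, adjusted p = 0.333 from limma). Without wild type replicate 3 they were -0.09 for SLC1 and 0.08 for ALE1. ARE2, a sterol acyltransferase gene picked here for its spread, read 8.18, 7.31 and 7.22 in 59A PDR8-S288c and 8.32 and 7.12 in wild type replicates 1 and 2. It shared with ELO1, CYB5 and ACS2 the high values of replicate 1 in both strains. None of these genes had a value in wild type replicate 3, so in the wild type only replicate 2 stands against replicate 1. Over the 42 genes of the 8 lists the order held in 12 (28.6%), against 20.5% of all features. The SD of ARE2 within strains, 0.65, was reached by 0.304% of all features, and its LogFC was -0.15 (SE 0.41, adjusted p = 0.878 from limma).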

How the data were processed

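Total RNA of 6 fermentation cultures was labeled with Cy3 and hybridized on Agilent 8x15k arrays, all on slide 1. The authors scanned them with GenePix and deposited the log2 of the median intensity of each spot after quantile normalization (R 2.13.1, limma). Whether these 6 arrays were normalized with the study's other arrays is not stated. Strain names and replicate numbers were taken from the sample titles. In 59A PDR8-S288c, 2 descriptions carry other numbers. Symbols came from the platform annotation (5220 of 6271 probes), with older symbols matched through RefSeq assembly R64. The brightest probe stood for each of 22 genes that have several. All 6248 features were fitted with limma 3.58.1 in R 4.3.3 (lmFit, eBayes, no block, no further scaling), with Benjamini-Hochberg adjustment. The fit was tested on simulated data. Exact permutation tests used SciPy 1.17.1 and plots matplotlib 3.10.9. The number of arrays limits the precision. Genes and lists were chosen with earlier results of these data known. Named were the 10 genes and, in each list, the genes called or otherwise the 2 with the largest change, with QDR2 and PDR8 as a check of the strains. The genes most like FAS1 were the 5 with the highest r among those with an SD of at least 0.5 times its own. Other genes were named after their values were seen. The same likeness was not computed for OLE1, which was saturated.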

Additional observations from a re-analysis of the deposited data

How the results depend on the processing

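None of the 9 fatty acid genes besides OLE1 was called in any of the 16 alternatives. These were centring on the median, quantile normalization repeated, dim or incomplete features left out, another variance model, weighted arrays and averaged probes. The others were 2 replicate blocks, slide position, and each array left out. Of 143 recomputed fold changes of the 9 unsaturated genes, 138 kept their sign and 5 turned it, and the lowest adjusted p was 0.0712 (limma, SPT23 without wild type replicate 1). With slide position in the fit the LogFC was -0.02 for FAS1, 0.05 for FAA4, 0.03 for ACB1 and -0.25 for ACS2, and with array weights it was 0.01 for ACB1 and -0.04 for ACS2. Without single arrays ACB1 ranged from -0.10 to 0.06, ACS2 from -0.25 to 0.37 and FAT1 from -0.10 to 0.02. Over all genes, 96 features passed an adjusted p under 0.05. The count was 152 for the robust variance with a trend, 208 for weighted arrays and 6 once slide position was included, and it ranged from 3 to 90 when an array was dropped (3 without 59A PDR8-S288c replicate 1 or 2 or wild type replicate 2, 13 without wild type replicate 1, 48 without 59A PDR8-S288c replicate 3). In the 8 further lists 1 gene passed with array weights and 0 in the other alternatives. The replicate numbers were not taken as pairs of cultures. The deviations of same-numbered cultures correlated at 0.169, 0.339 and -0.427 across genes for the title numbers, and at -0.053, -0.686 and -0.427 for those of the descriptions. With 3 arrays per strain, and the many extreme values of wild type replicate 3, these values cannot decide whether cultures were paired. With the replicate block of the titles 19 features passed and with that of the descriptions 3, and no fatty acid gene did. The causes of these changes were not tested. Signal limits OLE1 (saturated), OAR1 (near background) and ELO3, whose lowest value was 0.82 above background.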
